A study of Sus scrofa with 41 samples.

Results

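Skeletal muscle is a mosaic of slow fibres, which contract slowly, resist fatigue and burn fat and sugar in their mitochondria, and fast fibres, which lean more on glycogen and glycolysis. The 2 kinds carry different versions of the same contractile proteins, so the mRNA of slow versions in a piece of muscle is a common index of how much slow-fibre RNA the piece holds. Here each pig was given a slow-fibre score from 6 such genes, pigs were chosen by that measured score, and the 10 pigs with the highest score were compared with the 10 with the lowest, 20 of the 41 pigs sequenced. The score was the mean, over TNNT1, TNNI1, TNNC1, MYL2, MYL3 and ATP2A2, of the z-score across the 41 pigs of log2(CPM + 1), where CPM is the count of a gene per 1000000 counts on all genes. TNNT1, TNNI1 and TNNC1 encode the slow forms of the 3 troponin subunits, MYL2 and MYL3 encode the myosin light chains of slow and cardiac muscle, and ATP2A2 encodes the calcium pump of their sarcoplasmic reticulum.

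The pigs were intact males of 2 purebred Danish lines, Danbred Duroc (n = 13) and Danbred Landrace (n = 28), fed freely and tested for feed conversion ratio (FCR, read here as feed eaten per weight gained because the values lie above 1, although the methods word it as growth over feed). The psoas major, a loin muscle, was sampled right after slaughter and its polyadenylated RNA sequenced without strand information, with 1 library per pig and no treatment, so reads of genes that overlap on opposite strands cannot be told apart. The 10 high-score pigs were 6 Duroc and 4 Landrace of 131 to 162 days, and the 10 low-score pigs were 1 Duroc and 9 Landrace of 147 to 160 days. Pigs are named here by breed and a number that follows the order of deposition, and the number carries no other meaning. Each value is a whole piece of muscle, so fewer slow fibres and less slow-fibre RNA per fibre cannot be told apart, and a blood vessel or nerve in the piece counts towards its RNA. CPM is not divided by gene length, so levels are compared between pigs and not between genes.

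The high group scored 0.502 to 2.52, with a median of 0.856, and the low group −2.86 to −0.519, with a median of −0.775. At the upper border Duroc 7, the last pig taken in, scored 0.502 and Landrace 26, the first left out, scored 0.496. At the lower border Duroc 10 scored −0.519 inside and Landrace 3 scored −0.477 outside. The scores were therefore nearly continuous at both borders, and the ends of the range were set by single animals.

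**Figure D1:**
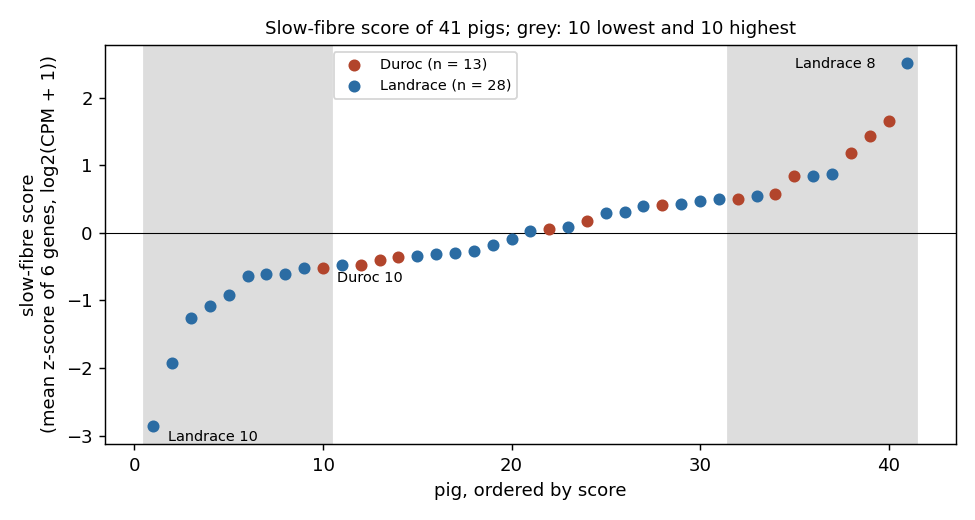
Slow-fibre score (mean z-score of 6 genes, y axis) of the 41 pigs in order of score (x axis), red for Duroc and blue for Landrace, with the 10 lowest and 10 highest on grey. Landrace 8 stands at 2.52 and Landrace 10 at −2.86, while the pigs near both borders differ little from their neighbours outside.

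Totals on genes were 24774709 to 25873606 counts in the high group, 22588717 to 25730415 in the low group and 22188911 at the least over all 41 pigs. RNA integrity numbers (RIN) were 7.8 to 8.3 in the high group and 7.0 to 8.3 in the low group. Scaling factors by the trimmed mean of M-values (TMM), which adjust for RNA make-up, had medians of 1.09 in the high and 0.952 in the low group. A pair of pigs stood apart. Landrace 8 had the highest score and lay at the end of the high group for many genes. Duroc 10, the 1 Duroc in the low group, had the lowest depth of that group (22588717 counts), the lowest share of reads on genes (71.1%, against 77.7% to 80.9% in the other 9 low pigs), RIN 7.0 and a TMM factor of 0.774. By the score without ATP2A2 (−0.254) and by the score from TMM-scaled CPM (−0.0159), Duroc 10 fell between the groups. The main results are given with and without Landrace 8 and Duroc 10.

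The 6 score genes chose the pigs, so their values describe the groups and were not tested. TNNT1 was 1500 to 4692 CPM in the high group, with a median of 2098, and 336 to 1032 in the low group, with a median of 907. MYL2 was 2284 to 6879 CPM, median 2928, against 538 to 1786, median 1276. ATP2A2 was 685 to 2000 CPM, median 846, against 131 to 575, median 333. For these 3 genes and for TNNC1 and MYL3 no high pig overlapped a low pig, and for TNNI1 9 of the 10 high pigs lay above all low pigs. Landrace 8 was the highest high pig for TNNT1, TNNI1 and MYL2, well apart from the next pig.

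The other genes were compared between the groups with breed and RIN in the fit. Of 11140 genes tested, 254 had a false discovery rate (FDR) under 0.1 by edgeR, 208 higher in high-score pigs (1.87% of those tested) and 46 lower (0.413%). The higher genes had a median log2 fold change of 0.75 and ranged from 0.26 to 3.50, and the lower genes had a median of −0.49, while the median over all genes tested was 0.002. Genes past this threshold are called higher or lower below. These tests describe which genes went along with the score in the same libraries that gave the score. Among the lists looked at, those with most called members were fatty acid oxidation (13 higher), the TCA cycle and pyruvate (7), contractile genes of slow muscle (5) and nuclear respiratory chain subunits (5), and edgeR called no fast-fibre or glycolytic gene on the lists lower, while DESeq2 called 4 and 3 lower.

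The number of genes past the threshold depended on few animals. It was 128 without Landrace 10, 145 without Landrace 14 and 592 (387 higher and 205 lower) without Landrace 25. Without Landrace 8, 16 genes passed edgeR's test, all higher (0.144%). Without Duroc 10, 95 were higher (0.853%) and 14 lower (0.126%). Without both, 10 passed, all higher (0.0898%), and none was lower. An unadjusted edgeR p under 0.05 was held by 605 of the 11140 genes (5.43%) in that fit, against 1720 (15.4%) with all 20 pigs. All 208 higher genes and all 46 lower genes had the same direction without Landrace 8, without Duroc 10, without both, and in the 13 Landrace pigs of the groups alone (4 high and 9 low). These fits share most of their pigs, and of all 11140 genes 9717 also had the same direction without Landrace 8 and 9216 without both. Of the genes on the lists below, MYH7B, PDLIM1 and MYH6 were still called without Landrace 8, and no other member was. The median of the 208 was 0.53 without Landrace 8 and 0.50 without both pigs. Fitted as a number over all 41 pigs, the score had 650 genes rising with it (5.83%) and 306 falling (2.75%) at FDR under 0.1, and in the 39 pigs without Landrace 8 and Duroc 10 it had 104 rising (0.934%) and 11 falling (0.0987%).

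**Figure D2:**
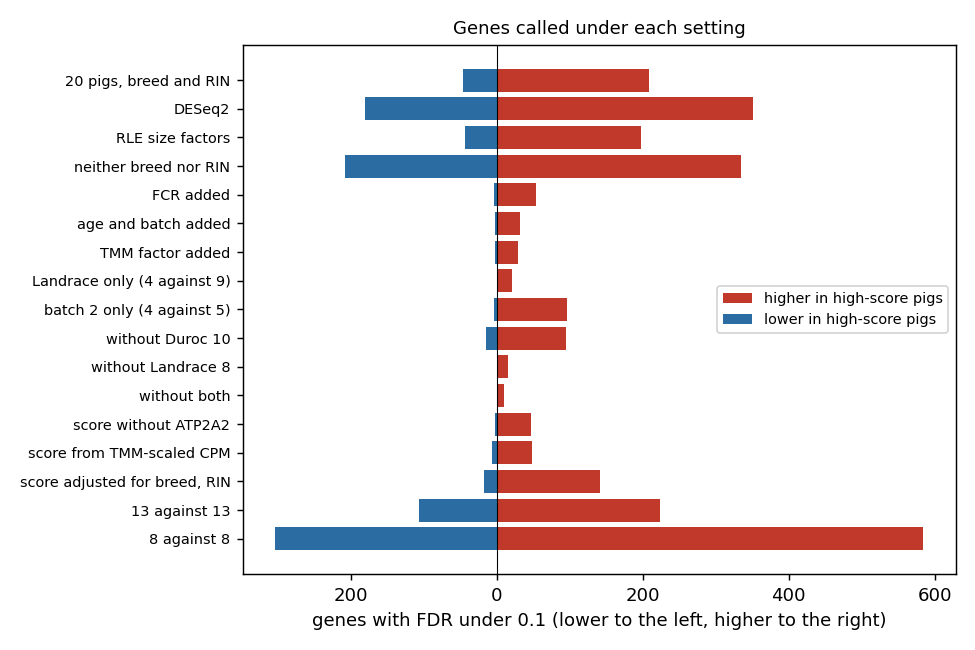
Number of genes with FDR under 0.1 (x axis), higher in high-score pigs to the right in red and lower to the left in blue, for the comparison of 20 pigs adjusted for breed and RIN (top bar, 208 higher and 46 lower) and 16 other settings (y axis). Among the settings drawn, the bars run from 10 higher and 0 lower genes without Landrace 8 and Duroc 10 to 584 and 303 when the 8 highest and 8 lowest pigs are compared.

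Contractile genes of slow muscle that were not in the score came first. Of 16 listed, 10 were tested, 5 were called higher and none lower, and 8 of the 10 had a positive fold change. Their median log2 fold change was 0.83, and 0.29 without Landrace 8 and Duroc 10, when 2 genes still passed. MYH7B, a slow-type myosin heavy chain gene (Sscrofa11.1 chr17:38362158-38385680 by RefSeq), was 21.3 to 58.5 CPM in the high group, median 26.2, and 5.23 to 17.2 in the low group, median 10.5. The groups did not overlap, and the log2 fold change was 1.42 ± 0.20 (SE, edgeR FDR 0.00210), or 1.01 (edgeR FDR 0.0991) without both pigs that stood apart. PDLIM1, a LIM protein of the Z-disc and actin fibres (chr14:106744320-106793606), was 60.1 to 148 CPM, median 75.9, against 22.5 to 70.6, median 36.2. Its highest low-score value was that of Duroc 10, 6 of the 10 high pigs lay above it, and the log2 fold change was 1.06 ± 0.17 (edgeR FDR 0.00340), or 0.87 (FDR 0.0534) without both pigs.

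The other 3 slow contractile genes called in the comparison passed less clearly. ACTN2, the alpha-actinin that anchors thin filaments at the Z-disc of all fibres, was 2125 to 4749 CPM, median 2577, against 939 to 1998, median 1809. Its groups did not overlap, and its log2 fold change was 0.63 ± 0.16 (edgeR FDR 0.0676), or 0.37 (edgeR FDR 0.768) without Landrace 8. MYBPC1, the slow myosin-binding protein C, was 3034 to 6652 CPM, median 3975, against 1455 to 3361, median 2948, and 9 high pigs lay above all low pigs. Its log2 fold change of 0.58 ± 0.14 (edgeR FDR 0.0523) was 0.42 (edgeR FDR 0.574) without Landrace 8. ANKRD2, a stretch-responsive ankyrin-repeat protein of slow muscle, was 37.1 to 135 CPM, median 49.2, against 8.94 to 158, median 27.3. The 158 CPM came from Duroc 10 and the next low pig had 32.3, below every high pig. ANKRD2 had a log2 fold change of 1.04 ± 0.29 (edgeR FDR 0.0842), 0.63 (edgeR FDR 0.792) without Landrace 8 and 1.18 (edgeR FDR 0.117) without Duroc 10. With age and batch added to the fit, MYH7B (1.23, edgeR FDR 0.0597) was still called, and PDLIM1 (0.87, edgeR FDR 0.108), MYBPC1 (0.56, edgeR FDR 0.117), ACTN2 (0.57, edgeR FDR 0.176) and ANKRD2 (0.90, edgeR FDR 0.344) were not.

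CSRP3, a muscle LIM protein that senses stretch, had the largest fold change on the slow list but did not pass. Its log2 fold change was 2.22 ± 0.65 (edgeR FDR 0.107) with all 20 pigs and 0.23 without Landrace 8, so its size in this comparison depended on that pig. Landrace 8 had 388 CPM and the next high pig 235. With age and batch added it was 0.92. With the score as a number, the slope was 0.90 in 41 pigs and 0.75 without Landrace 8. LMOD2, which lengthens thin filaments, was at 1.08 ± 0.32 (edgeR FDR 0.107), SMPX, a small protein of the muscle membrane scaffold, at 0.44, XIRP1 at −0.38 and TNNT2, the cardiac troponin T, at −0.76, none past the threshold by edgeR. DESeq2 called LMOD2 (DESeq2 FDR 0.0306). The slow myosin heavy chain MYH7, TPM3 and MYOZ2 had no tested gene under their symbols and are not analysed here.

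A gene annotated as MYH6, the alpha myosin heavy chain of the heart, was also called. It was 3256 to 8783 CPM in the high group, median 4280, and 662 to 2266 in the low group, median 1540. The groups did not overlap, and MYH6 had a log2 fold change of 1.53 ± 0.24 (edgeR FDR 0.00298), or 1.14 (edgeR FDR 0.0698) without Landrace 8 and 1.10 (edgeR FDR 0.202) without both pigs. MYH6 and the slow gene MYH7 are close relatives that lie side by side in mammals, and reads of one may have been counted for the other, so the name of this signal is uncertain. The developmental myosins MYH3 and MYH8 were at log2 fold changes of 0.06 and −0.84 ± 0.26 (edgeR FDR 0.131), and neither passed edgeR's test, while DESeq2 called MYH8 lower (DESeq2 FDR 0.0370).

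Fast-fibre contractile genes lay on the other side without passing edgeR's test. All 13 tested members had a negative log2 fold change, with a median of −0.43, and none was called by edgeR, with 9 at an unadjusted edgeR p under 0.05. DESeq2 called 4 lower, TNNC2 (DESeq2 FDR 0.0238), MYBPC2 (DESeq2 FDR 0.0359), TNNI2 (DESeq2 FDR 0.0481) and TNNT3 (DESeq2 FDR 0.0828), and without Duroc 10 edgeR called 1, MYH13. Without Landrace 8 the median was −0.23, and 1 of the 13 was positive. TNNI2, the fast troponin I, was 4249 to 7741 CPM in the high group, median 6419, and 6474 to 10093 in the low group, median 9136. Of the 10 high pigs 5 lay below all low pigs, and TNNI2 had a log2 fold change of −0.55 ± 0.17 (edgeR FDR 0.134). MYBPC2, the fast myosin-binding protein C, was 3578 to 8441 CPM, median 6374, against 7035 to 9122, median 8311. Of the high pigs 7 lay below all low pigs, and MYBPC2 had −0.56 ± 0.17 (edgeR FDR 0.122). TNNT3 was at −0.47, TNNC2 at −0.55, MYL1 at −0.29, TPM1 at −0.43, MYOZ1 at −0.24, MYOZ3 at −0.47, TPM2 at −0.11, skeletal actin ACTA1 at −0.19 and MYH13 at −0.79. MYH13 had very low levels, 0.242 to 0.957 CPM in the high group and 0.177 to 1.14 CPM in the low group.

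ACTN3, the alpha-actinin of fast fibres, was spread widely within both groups. It was 2052 to 4451.9 CPM in the high group, median 3770, and 1326 to 5060 in the low group, median 4269. Landrace 8 was the lowest high pig and Duroc 10 the lowest low pig, both far below the rest of their group. ACTN3 had a log2 fold change of −0.22 ± 0.19 (edgeR FDR 0.613), and 0.01 without Landrace 8. MYLK2, the kinase that phosphorylates myosin light chain in fast muscle, was 765 to 1626 CPM, median 979, against 976 to 1456, median 1264, and its log2 fold change was −0.37 (edgeR FDR 0.319). Over all 41 pigs with the score as a number, 10 of the 13 fast genes fell with the score at FDR under 0.1, but none did in the 39 pigs without Landrace 8 and Duroc 10. The main adult fast myosin heavy chains MYH1, MYH2 and MYH4 had no tested gene under their symbols.

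**Figure D3:**
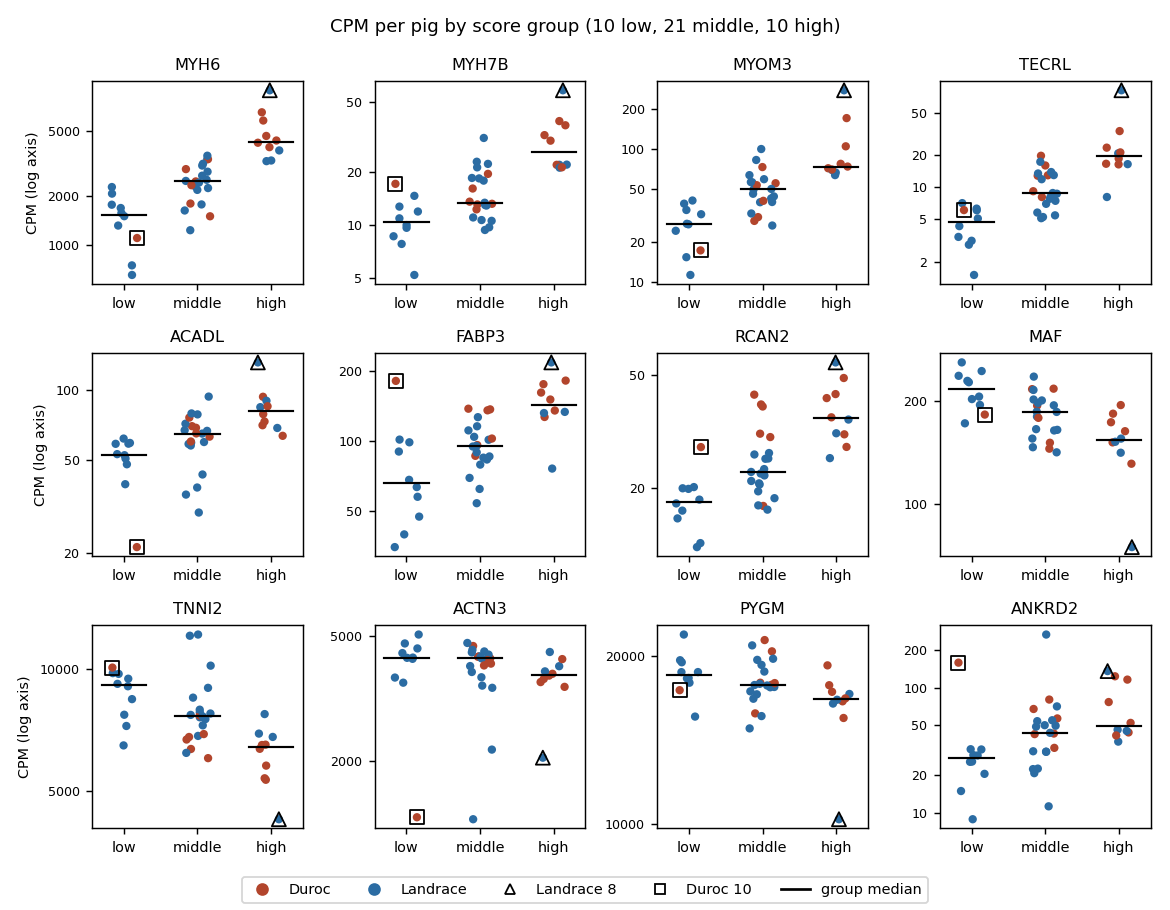
CPM (log axis) of 12 genes in the 10 low, 21 middle and 10 high pigs by score, 1 point per pig, red for Duroc and blue for Landrace, with a line at each group's median, a triangle on Landrace 8 and a square on Duroc 10. MYH6, MYH7B, MYOM3, TECRL and ACADL do not overlap between the low and high groups, and Landrace 8 is the highest high pig for each of these 5, while Duroc 10 is the highest low pig for FABP3, RCAN2 and ANKRD2.

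Genes of calcium handling, which time the contraction and differ between fibre types, showed no call by edgeR, and 1 higher and 1 lower by DESeq2. Of 21 tested, 3 had a positive fold change, and the median was −0.19, or −0.06 without Landrace 8. In the 20 pigs 7 negative and 2 positive genes had an unadjusted edgeR p under 0.05. Scaled by total counts, 8 of the 21 were positive and the median was −0.05. In the calcineurin and NFAT list, the calcium-dependent pathway that maintains slow fibres, 1 of 20 passed. That gene was RCAN2, which encodes a regulator of calcineurin. It was 25.5 to 55.2 CPM in the high group, median 35.1, and 12.5 to 27.9 in the low group, median 17.99, with 9 high pigs above all low pigs. RCAN2 had a log2 fold change of 0.87 ± 0.16 (edgeR FDR 0.00896), 0.70 (edgeR FDR 0.168) without Landrace 8 and 0.90 (edgeR FDR 0.0256) without Duroc 10. In the 21 middle pigs RCAN2 had a slope of 0.04 per unit of score, near 0.

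Among 27 transcription regulators of fibre type, 20 had a negative fold change and 1, MAF, was called. Scaled by total counts, 13 of the 27 were negative and their median was 0.001, so the side of this list depended on the scaling. MAF encodes a large Maf transcription factor (chr6:8468736-8910012). It was 74.8 to 195 CPM in the high group, median 154, and 172 to 260 in the low group, median 217, and 7 high pigs lay below all low pigs. MAF fell by 0.82 ± 0.18 on the log2 scale (edgeR FDR 0.0322), and it was at −0.60 (edgeR FDR 0.233) without Landrace 8, its lowest pig.

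Of 23 regulators of mitochondrial content, 3 were called higher and none lower. ESRRB, an oestrogen-related nuclear receptor (chr7:99511135-99699478), was 5.11 to 24.6 CPM in the high group, median 14.1, and 1.99 to 15.7 in the low group, median 3.75. The highest low pig was Duroc 10, 4 high pigs lay above it, and the log2 fold change of ESRRB was 1.29 ± 0.28 (edgeR FDR 0.0287), 0.89 (edgeR FDR 0.436) without Landrace 8 and 1.51 (edgeR FDR 0.0257) without Duroc 10. SIRT3, a deacetylase of the mitochondrial matrix, was at 0.66 ± 0.14 (edgeR FDR 0.0309), and 0.57 (edgeR FDR 0.333) without Landrace 8. PRKAG1, a subunit of the energy sensor AMPK, was at 0.60 ± 0.13 (edgeR FDR 0.0322), 0.35 (edgeR FDR 0.428) without Landrace 8 and 0.57 (edgeR FDR 0.108) without Duroc 10. The median of the list was 0.06, close to that of all genes.

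Fatty acid oxidation had the most called genes of the lists. Of 33 tested, 13 were higher and none lower, 27 had a positive fold change, and the median was 0.37. ACADL, the long-chain acyl-CoA dehydrogenase that opens a round of beta-oxidation (chr15:112935631-112969381), was 63.7 to 131 CPM in the high group, median 81.6, and 21.3 to 62.0 in the low group, median 52.9. No pig overlapped, and ACADL had a log2 fold change of 0.76 ± 0.13 (edgeR FDR 0.00577) with all pigs and 0.62 (edgeR FDR 0.110) without Landrace 8. ACAA2, the thiolase that closes the round, was 38.7 to 81.0 CPM, median 58.6, against 26.0 to 37.4, median 33.8. Its groups did not overlap either, and ACAA2 had 0.66 ± 0.13 (edgeR FDR 0.0178).

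DECR1, which processes unsaturated fatty acids, was 36.1 to 90.9 CPM, median 44.5, against 13.0 to 39.4, median 33.9, with 7 high pigs above all low pigs. DECR1 had a log2 fold change of 0.75 ± 0.13 (edgeR FDR 0.00743). FABP3, the fatty acid carrier of heart and slow muscle, was 76.1 to 218 CPM, median 143, against 35.0 to 181, median 65.7, where the 181 CPM was Duroc 10. FABP3 had a log2 fold change of 0.82 ± 0.22 (edgeR FDR 0.0750). PLIN5, which holds lipid droplets next to mitochondria, was at 1.46 ± 0.27 (edgeR FDR 0.0104), and LPL, the lipase that frees fatty acids from circulating lipoprotein, at 1.11 ± 0.25 (edgeR FDR 0.0369). The other 7 called were ETFA (0.50), CPT2 (0.82), ACADVL (0.64), ACADM (0.52), HADHB (0.62), HADH (0.40) and ACAT1 (0.72). ACSL1 (0.52, edgeR FDR 0.117), HADHA (0.22), PNPLA2 (0.20) and CRAT (−0.07) did not pass. Without Duroc 10 the list had 9 calls, and without Landrace 8 none, with a median of 0.27.

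In the TCA cycle and pyruvate list 7 of 27 tested genes were called higher, none lower, and the median log2 fold change was 0.28. The called genes were IDH2 (0.50), IDH3A (0.49), DLST (0.71), DLD (0.38) and MDH1 (0.64), enzymes of the cycle or its shuttles, with GOT1 (0.73), an aspartate aminotransferase, and PDK2 (0.47), a kinase that restrains pyruvate dehydrogenase. MDH2 (0.28), PDK4 (0.67, edgeR FDR 0.186) and OGDH (−0.04) did not pass. The summed CPM of the list was 5998 to 8199 in the high group and 3783 to 5440 in the low group, without overlap. Without Duroc 10, 1 gene passed, and without Landrace 8 none did.

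Nuclear genes for respiratory chain subunits were mostly on the same side, with small differences. Of 61 tested, 52 had a positive fold change, 5 were called higher and none lower, and the median was 0.17. Scaled by total counts, 60 were positive and the median was 0.34. SDHC, a membrane anchor of complex II, was 72.9 to 168 CPM in the high group, median 106, and 27.4 to 86.4 in the low group, median 66.3, with 8 high pigs above all low pigs. SDHC had a log2 fold change of 0.73 ± 0.15 (edgeR FDR 0.0178), and 0.55 (edgeR FDR 0.271) without Landrace 8. NDUFS1 of complex I was at 0.51 ± 0.10 (edgeR FDR 0.0193), UQCRC2 of complex III at 0.51 (edgeR FDR 0.0334), and NDUFA5 of complex I at 0.43 (edgeR FDR 0.0630), with UQCRFS1 of complex III at 0.42 the fifth. ATP5F1A of the ATP synthase (0.42, edgeR FDR 0.141) and COX4I1 of complex IV (0.09) did not pass. Without Landrace 8 no subunit was called and the median was 0.09, and without Duroc 10, 2 were called. Without both the median was 0.04, and 39 of 61 were positive.

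The 13 protein genes of the mitochondrial genome had small differences. None was called by edgeR or DESeq2, none had an unadjusted edgeR p under 0.05, 7 had a positive fold change and the median was 0.04, or −0.01 without Landrace 8. COX1, the core subunit of complex IV, was 18272 to 33396 CPM in the high group, median 22074, and 13293 to 49904 in the low group, median 21604. The groups overlapped almost wholly, Duroc 10 held the 49904 CPM with the next low pig at 25298, and COX1 had a log2 fold change of 0.05 ± 0.16 (edgeR FDR 0.908). ATP6 (0.08), COX2 (0.04), COX3 (−0.02), CYTB (−0.06) and ND1 (−0.10) did not pass either.

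Enzymes of glycolysis lay lower without a call by edgeR. Of 19 tested, 16 had a negative fold change, with a median of −0.34, and none passed edgeR's test. An unadjusted edgeR p under 0.05 was held by 8 negative genes and 1 positive gene. DESeq2 called 3 lower. Without Landrace 8 the median was −0.19, and 14 of the 19 were negative. Over all 41 pigs 8 fell and 1 rose with the score at FDR under 0.1, and in the 39 pigs 1 rose and none fell. GAPDH was 24316 to 50919 CPM in the high group, median 37551, and 39586 to 54901 in the low group, median 46311. Of the high pigs 7 lay below all low pigs, yet GAPDH had a log2 fold change of −0.39 ± 0.18 (edgeR FDR 0.294). GPI (−0.49, edgeR FDR 0.177), ALDOA (−0.47, edgeR FDR 0.180), PKM (−0.40), ENO3 (−0.39) and PGK1 (−0.35) were alike.

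In the glycogen list 1 of 13 was called, in the higher direction. GBE1, the branching enzyme of glycogen synthesis, had a log2 fold change of 0.82 ± 0.19 (edgeR FDR 0.0381), and 0.45 (edgeR FDR 0.582) without Landrace 8. The median of the list was −0.20, and −0.04 without Landrace 8. PYGM, the muscle phosphorylase that breaks glycogen down, was 10191 to 19225 CPM in the high group, median 16731, and 15564 to 21833 in the low group, median 18473. Landrace 8 had the lowest of these values, and PYGM had −0.43 ± 0.15 (edgeR FDR 0.191). In the list of oxygen and creatine genes, SLC6A8, the creatine transporter, was called lower at −0.62 ± 0.16 (edgeR FDR 0.0617), and −0.48 (edgeR FDR 0.501) without Landrace 8. Its group medians were 174 CPM in the high and 172 in the low group, with 3 high pigs below all low pigs, and with neither breed nor RIN in the fit it was at −0.32 (edgeR FDR 0.378). CKM, the muscle creatine kinase, was at −0.06, CA3, the carbonic anhydrase of slow fibres, at 0.47 and AMPD1 at −0.33, none past the threshold.

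**Figure D4:**
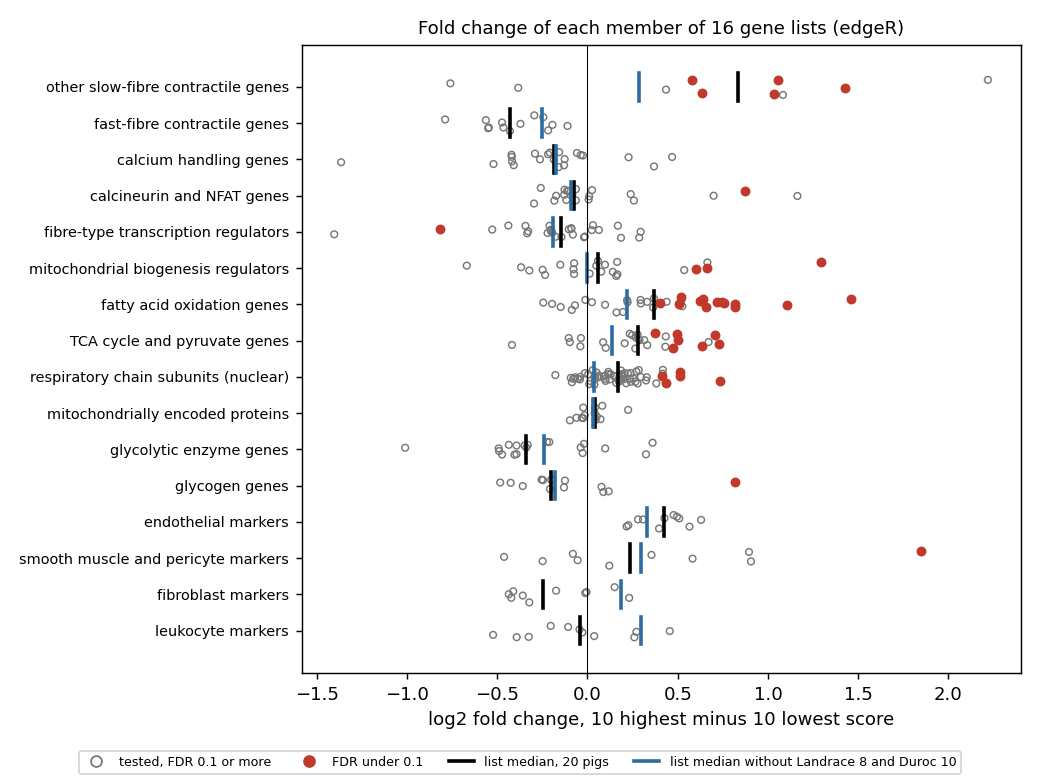
Log2 fold change between the 10 highest and 10 lowest pigs (x axis) of each tested member of 16 gene lists (y axis), filled red where the edgeR FDR was under 0.1 and open otherwise, with a black bar at the list median and a blue bar at the median without Landrace 8 and Duroc 10. Slow-fibre contractile (median 0.83) and fatty acid oxidation genes (0.37) lie to the right, fast-fibre contractile (−0.43) and glycolytic genes (−0.34) to the left, and fibroblast and leukocyte markers change side when both pigs are left out.

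The genes with the smallest p among the higher ones were of several kinds. RSPO3, a secreted activator of Wnt signalling (chr1:35985985-36066432), was 1.90 to 15.6 CPM in the high group, median 2.79, and 0.625 to 1.90 in the low group, median 1.30. The groups just failed to overlap, the 15.6 CPM was Landrace 8, and RSPO3 had a log2 fold change of 2.21 ± 0.31 (edgeR FDR 0.00210), or 1.57 (edgeR FDR 0.0534) without both pigs that stood apart. TECRL, a reductase-like protein of heart and skeletal muscle (chr8:62542452-62646084), was 8.11 to 81.4 CPM, median 19.7, against 1.503 to 7.10, median 4.71. It did not overlap and had 2.44 ± 0.35 (edgeR FDR 0.00210), or 1.68 (edgeR FDR 0.0394) without both.

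MYOM3, a myomesin that links thick filaments at the M-band (chr6:81803877-81859506), was 63.5 to 276 CPM, median 72.6, against 11.3 to 40.9, median 27.2, with no overlap. MYOM3 had a log2 fold change of 1.94 ± 0.30 (edgeR FDR 0.00297), or 1.16 (edgeR FDR 0.238) without both pigs. NNT, the transhydrogenase of the inner mitochondrial membrane that supplies NADPH, was 142 to 355 CPM, median 224, against 57.0 to 138, median 111. NNT did not overlap and had 0.88 ± 0.13 (edgeR FDR 0.00227), 0.67 (edgeR FDR 0.0367) without Landrace 8 and 0.56 (edgeR FDR 0.108) without both. PTGR2, a prostaglandin reductase, was 12.9 to 34.5 CPM, median 16.4, against 6.69 to 10.5, median 9.17, and had 0.97 ± 0.14 (edgeR FDR 0.00225), or 0.58 (edgeR FDR 0.0534) without both.

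FGF1, a growth factor, was 3.15 to 8.84 CPM in the high group, median 5.81, and 1.33 to 3.43 in the low group, median 1.93, with 9 high pigs above all low pigs. FGF1 had a log2 fold change of 1.25 ± 0.20 (edgeR FDR 0.00298), or 1.03 (edgeR FDR 0.160) without both pigs. MRPS6, of the small subunit of the mitochondrial ribosome, was at 1.30 (edgeR FDR 0.00227), or 1.07 (edgeR FDR 0.142) without both. With age and batch added, 8 of the 10 higher genes with the smallest p were at edgeR FDR 0.0597 or 0.0820, and MYOM3 and PDLIM1 at 0.108. The largest fold change of any called gene was that of MYL6, the light chain of non-muscle and smooth muscle myosin, which was chosen here after its values were seen. MYL6 was 70.9 to 3288 CPM in the high group, median 326, and 35.0 to 136 in the low group, median 50.9. Landrace 8 held the 3288 CPM, the next pig had 1022, and the log2 fold change of 3.50 ± 0.59 (edgeR FDR 0.00525) was 1.33 ± 0.39 (edgeR FDR 0.397) without that pig. Reads of MYL6B, a near relative with no tested gene under its symbol, may be counted in MYL6.

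Over the 208 higher genes, 20 had no overlap between the groups, and over the 46 lower genes 1 had none, against 25 of all 11140 genes (0.224%). The 1 lower gene was RGS19, which quiets G-protein signals. RGS19 was 6.42 to 8.74 CPM in the high group, median 8.13, and 8.99 to 12.4 in the low group, median 10.6. It fell by 0.58 ± 0.12 on the log2 scale (edgeR FDR 0.0209), and was at −0.48 (edgeR FDR 0.236) without Landrace 8. Other lower genes with a small p were LTBR, the lymphotoxin beta receptor (−0.41), GKAP1 (−0.45), SLC31A2, a copper transporter (−0.55), SLX9 (−0.51), BCAP31 (−0.59), JOSD2, a deubiquitinase (−0.61), TRMU (−0.48) and MAF, and none of them was called without Landrace 8. Within batch 2, BCAP31 (0.10) and TRMU (0.28) were positive. For TRMU, which modifies mitochondrial tRNA, the unadjusted medians ran the other way, 6.46 CPM in the high and 5.11 in the low group.

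Without a test, the genes whose log2(CPM + 1) followed the score most closely over the 41 pigs were 3 with no symbol, of which the first were ENSSSCG00000006556 (Pearson r = 0.983) and ENSSSCG00000000576 (r = 0.940), and then MYH6 (r = 0.878), PLIN5 (r = 0.876), MYH7B (r = 0.864) and PDLIM1 (r = 0.860). Points share depth and RNA make-up with the score. Without Landrace 8 the values of these 6 were 0.982, 0.927, 0.855, 0.856, 0.833 and 0.830 in the same order. ENSSSCG00000006556 was 1154 to 3473 CPM in the high group, median 1386, and 255 to 816 in the low group, median 627, without overlap. ENSSSCG00000000576 was 75.8 to 189 CPM, median 105, against 26.8 to 65.9, median 47.3, also without overlap. In the other direction the closest were GAPDH (r = −0.683), MYBPC2 (r = −0.678), ALDOA (r = −0.637), MAF (r = −0.627) and PYGM (r = −0.600).

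Markers of other cell types were looked at beside the fibre genes, since vessels, connective tissue and blood are in the same sample. All 11 tested endothelial markers had a positive fold change, with a median of 0.43, and none was called by edgeR or DESeq2, with 4 at an unadjusted edgeR p under 0.05. Without Landrace 8 the median was 0.18, with 10 of the 11 positive. Over all 41 pigs with the score as a number, 6 of the 11 rose with the score at FDR under 0.1, as did 4 of 10 smooth muscle and pericyte markers and 2 of 2 erythroid markers, and in the 39 pigs without Landrace 8 and Duroc 10 none of these did. PECAM1, an adhesion molecule of vessel lining, was 27.8 to 109 CPM in the high group, median 68.0, and 11.4 to 66.3 in the low group, median 35.3. The groups overlapped, and PECAM1 had a log2 fold change of 0.40 ± 0.26 (edgeR FDR 0.476). The summed endothelial CPM was 132 to 328 in the high group, median 232, and 63.1 to 236 in the low group, median 136. ENG (0.22), CDH5 (0.28), ESAM (0.43), ERG (0.51) and TEK (0.63) were within this range.

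Of 10 smooth muscle and pericyte markers 1 was called. MYH11, the smooth muscle myosin, was 5.90 to 40.1 CPM in the high group, median 14.3, and 0.407 to 13.7 in the low group, median 3.10, with 5 high pigs above all low pigs. MYH11 had a log2 fold change of 1.85 ± 0.51 (edgeR FDR 0.0867), 0.93 (edgeR FDR 0.856) without Landrace 8 and 2.09 (edgeR FDR 0.136) without Duroc 10. The list median of 0.24 was 0.01 without Landrace 8 and 0.54 without Duroc 10. ACTA2 (0.91), MYLK (0.89), RGS5 (0.58), DES (0.12), CNN1 (−0.25) and LMOD1 (−0.46) did not pass. The part that vessel RNA had in the differences between the groups was not tested.

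Fibroblast, leukocyte and adipocyte markers had medians of −0.25, −0.04 and −0.24 with no call by edgeR or DESeq2 and no unadjusted edgeR p under 0.05. Without Duroc 10 all 3 were positive, at 0.30, 0.16 and 0.20, and without Landrace 8 they were −0.36, −0.04 and −0.33. Among satellite cell markers CDH15, an M-cadherin of muscle precursor cells, was the 1 of 7 called. CDH15 was 23.4 to 52.3 CPM in the high group, median 44.7, and 50.4 to 69.0 in the low group, median 61.6, with 9 high pigs below all low pigs. CDH15 had a log2 fold change of −0.71 ± 0.18 (edgeR FDR 0.0630), −0.50 (edgeR FDR 0.428) without Landrace 8 and −0.74 (edgeR FDR 0.117) without Duroc 10. PAX7 and MYF5, the defining regulators of these cells, were both at −0.50 without passing, and the list median was −0.15, −0.37 without Landrace 8 and 0.02 without Duroc 10. Among erythroid markers, which follow the blood left in a sample, HBB and ALAS2 were at 0.72 and 1.14 without passing, and the median of 0.93 was 0.17 without Landrace 8 and −0.04 without both pigs. Of 2 Schwann cell genes, PMP22 was at 0.17 and PRX at 0.85, also without passing. Immediate-early genes, small heat shock proteins and genes of atrophy and denervation had no call by edgeR or DESeq2 (0, 0 and 2 with an unadjusted edgeR p under 0.05), with 2 of 10, 2 of 4 and 5 of 9 positive. Of the heart muscle list the genes tested were MYH6 and TNNT2. The cardiac regulators TBX5, NKX2-5 and GATA4 had 7, 27 and 31 counts over all 41 libraries, and NPPB, a natriuretic peptide of the heart, had 0. Genes of skeletal muscle were abundant in every pig of the groups. The 13 genes of the fast contractile list held 140600 to 216800 CPM per pig, with skeletal actin ACTA1 alone at 68140 to 130500.

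The 21 pigs between the groups were not used in the comparison, and they allow the same genes to be read in separate animals, although their scores span less (−0.477 to 0.496). With the score as a number, breed and RIN in the fit, no gene passed at FDR under 0.1 by edgeR, 223 had an unadjusted p under 0.05, and DESeq2 called 4. Of the 208 genes called higher between the groups, 171 (82.2%) had a positive slope in the middle pigs, against 47.0% of all genes tested. Of these 208, 36 (17.3%) had an unadjusted edgeR p under 0.05, all with a positive slope, against 2.00% of all genes. Of the 46 lower genes, 30 (65.2%) had a negative slope, against 53.0% of all genes, and 3 had an unadjusted p under 0.05. The slow contractile list had 9 of 10 positive slopes, fatty acid oxidation 25 of 33, the nuclear respiratory chain 46 of 61, glycolysis 8 of 19 and the fast list 4 of 13. MYH7B had a log2 slope of 0.78 per unit of score (edgeR unadjusted p = 0.00233), PDLIM1 of 0.72, ESRRB of 0.78 and MYH6 of 0.57. The slope of NNT was 0.02 (edgeR unadjusted p = 0.917), and MAF (0.09) and BCAP31 (0.06), both called lower between the groups, had positive slopes.

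**Figure D5:**
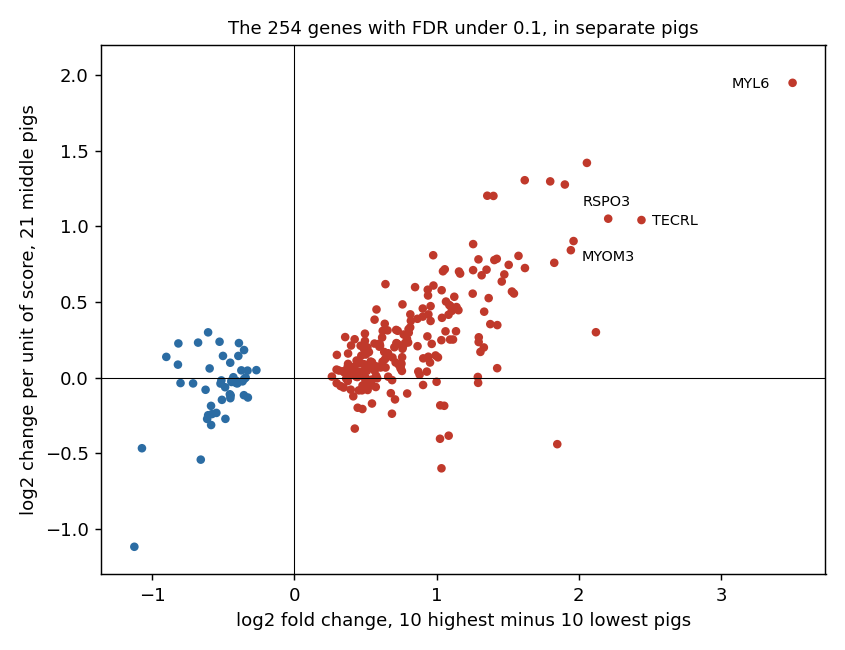
Each of the 254 genes with FDR under 0.1, by its log2 fold change between the 10 highest and 10 lowest pigs (x axis) and its log2 slope per unit of score in the 21 middle pigs (y axis), red for higher and blue for lower genes. Of the 208 red points 171 lie above 0 on the y axis, MYL6 is the farthest to the right at 3.50, and 30 of the 46 blue points lie below 0.

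Scaling moved the whole set of genes. TMM removes a shift that was present between the groups, which were themselves drawn on CPM scaled by total counts. With the score from TMM-scaled CPM, 7 pigs stayed in the high group and 7 in the low group. The other pigs of these groups then fell between them. The part that this choice of pigs had in the shift was not tested. Scaled by total counts alone, the median log2 fold change over all genes was 0.16, with 826 genes called higher and 29 lower. Of the calls 96.6% were then higher, against 81.9% with TMM. On that scale the medians were 1.01 for slow contractile genes, 0.55 for fatty acid oxidation, 0.46 for the TCA cycle, −0.18 for glycolysis and −0.30 for fast contractile genes. Under total counts the 13 mitochondrially encoded genes all turned positive (median 0.19), and 6 of 19 glycolytic and 1 of 13 fast genes were positive. The medians were then −0.04 for glycogen genes, −0.07 for fibroblast, 0.10 for leukocyte and 0.015 for satellite cell markers. With the size factors of DESeq2 inside edgeR 197 were higher and 44 lower.

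Breed make-up depended on how the groups were drawn. The odds of being Duroc rather than Landrace were 13.5 times as high in the high group (two-sided Fisher's exact test, p = 0.0573). With the score taken from TMM-scaled CPM the odds ratio was 1.71 (Fisher's exact p = 1), and for the 13 highest against the 13 lowest it was 2.86 (Fisher's exact p = 0.411). The 8 highest held 5 Duroc and the 8 lowest none (Fisher's exact p = 0.0256), and with the score adjusted for breed and RIN the odds ratio was 0.643 (Fisher's exact p = 1). Over 41 pigs the Landrace score was −0.182 ± 0.976 (SD, n = 28) and the Duroc score 0.391 ± 0.735 (SD, n = 13), a difference of −0.573 ± 0.275 (SE, two-sided permutation test, p = 0.0671), or −0.673 without Landrace 8 (permutation p = 0.0121). Whether the genes followed the score differently in the breeds was tested over the 41 pigs, and edgeR called 3 of 11140 genes and DESeq2 9. Without breed and RIN in the fit, 335 genes were higher and 208 lower by edgeR, and with age and batch (which the methods tie to the day of slaughter) added 32 and 2. Batch 1 held none of the 20 pigs, and batches 2 to 5 held 4, 3, 2 and 1 high and 5, 1, 1 and 3 low pigs. Within batch 2, the 1 batch with at least 4 pigs a group, 96 genes were higher and 4 lower, and 245 of the 254 genes kept their direction. The pigs of that fit are all among the 20 that gave the 254 genes, so this count is not a separate check of batch.

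The trait of the study, FCR, was set beside the score. FCR was 1.83 to 2.22 in the high group, mean 2.03 ± 0.134 (SD, n = 10), and 1.85 to 2.25 in the low group, mean 2.09 ± 0.116 (SD, n = 10). The groups overlapped, and the difference of −0.062 ± 0.0559 (SE) was within the spread between pigs (two-sided permutation test, p = 0.283). That test does not adjust for breed, and the difference was 0.0361 in Landrace pigs alone, 4 against 9 (exact permutation p = 0.504), and 0.012 with groups drawn on the score adjusted for breed and RIN (permutation p = 0.843). Over 41 pigs the score and FCR had Pearson r = −0.0412 (permutation p = 0.800) and Spearman rho = −0.0973 (permutation p = 0.544). Without Landrace 8 and Landrace 10, the pigs farthest from the median score, r was −0.269 (permutation p = 0.0958). Within Duroc r was −0.0149 (permutation p = 0.961) and within Landrace 0.251 (permutation p = 0.197), or −0.0937 without the Landrace pigs with the 2 most distant scores, and it was 0.0792, 0.253 and −0.242 within batches 2, 3 and 5. With FCR added to the fit across genes, 54 were higher and 4 lower.

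Of the other measures of the pigs and libraries, the score had r = −0.0594 with RIN (permutation p = 0.707; rho = −0.0200, permutation p = 0.901), −0.0585 with age (p = 0.715; rho = −0.0253, permutation p = 0.874) and −0.0677 with the total on genes (p = 0.659; rho = −0.119, permutation p = 0.457). Adjusted over these 3 relations and that with FCR by Benjamini-Hochberg, every permutation p was 0.800 for r and 0.901 for rho. Within breeds and within batches of at least 6 pigs, the r of the score with these 3 measures lay between −0.365 and 0.387, both for age, in Duroc and in Landrace. The second had an unadjusted permutation p of 0.0420 (rho = 0.327, permutation p = 0.0904). With the score from TMM-scaled CPM, r over 41 pigs was −0.264 with RIN (unadjusted permutation p = 0.0961). With the total on genes that score had r = −0.269 (unadjusted permutation p = 0.0919) and rho = −0.327 (unadjusted permutation p = 0.0358).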

How the data were processed

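The deposited values were raw read counts per gene, 1 table per pig, made by the authors. Reads were trimmed with Trimmomatic 0.39 and mapped and counted with STAR 2.7.1a on Sscrofa11.1 with Ensembl annotation (the tool versions are in the submitters' processing notes). The unstranded count column was used, and rows of unassigned reads were left out of totals. Symbols were matched by Ensembl identifier to RefSeq's table of that build, which named 9829 of the 11146 genes kept by filterByExpr in edgeR, 11140 of them outside the score. Positions are RefSeq's for the same build. Sequences were not used here.

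High and low score pigs were compared with edgeR 4.0.16 (quasi-likelihood test, TMM factors) in R 4.3.3, with breed and RIN as covariates, Benjamini-Hochberg adjustment over 11140 genes and a threshold of 0.1. DESeq2 1.42.0 was an alternative. The edgeR script was checked on simulated counts. p-values measure the spread between pigs. Traits were tested with 100000 permutations in scipy 1.17.1, or exactly where a group held under 10 values. The genes named were every tested contractile gene on the lists, called members of the calcium, regulator and stress lists, up to 4 most abundant and 4 with the smallest p of each metabolic and cell type list, and the 10 genes with a symbol and the smallest p in each direction, with values in every group for the main ones. Outside the rule, FABP3, MYL6 and the called ACAA2, ACADM, ACADVL, ACAT1, CPT2, HADH, HADHB, LPL, IDH2, IDH3A, PDK2 and UQCRFS1 were added after their values were seen. A few genes that the rule names are not reported here. The pigs, lists and this rule were chosen with earlier results of these data known. Other choices of samples, score, filter, scaling and covariates were tried.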

Additional observations from a re-analysis of the deposited data

Results flagged for a closer look

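In 90 sets of 10 values (45 measures of pigs, libraries and genes in each group), 27 had 1 pig at the end much farther from its neighbour than is usual for 10 values, where chance alone gives about 1 in 20 in samples drawn without selection. These groups are the ends of the score, and 3 of the genes are score genes, so that rate does not apply here and the values are a description. All 16 in the high group were Landrace 8. It was highest for TNNT1 (4692 CPM, next 2974), TNNI1 (2779, next 1812), MYL2 (6879, next 3920), MYH7B (58.5, next 39.1), PDLIM1 (148, next 91.0), ACADL (131, next 93.5), DECR1 (90.9, next 56.1), RSPO3 (15.6, next 4.82), TECRL (81.4, next 33.7), PTGR2 (34.5, next 20.6), MYL6 (3288, next 1022) and MYOM3 (276, next 170). It was lowest for ACTN3 (2052, next 3448), MAF (74.8, next 131), PYGM (10191, next 15475) and CDH15 (23.4, next 37.3). The other 11 were in the low group, all Duroc 10. It was lowest for its total on genes (22588717 counts), the share of reads on genes (71.1%), MYBPC1 (1455, next 2411) and ACTN3 (1326, next 3555), and highest for ANKRD2 (158, next 32.3), PDLIM1 (70.6, next 42.2), RCAN2 (27.9, next 20.2), ESRRB (15.7, next 6.23), FABP3 (181, next 101), MYL6 (136, next 75.0) and COX1 (49904, next 25298). Duroc 10 therefore had high values of several genes that otherwise went with a high score, with low depth and low RIN beside them, and the part of these in its values was not tested.

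The slope of a gene on the score differed between the breeds in 3 of 11140 genes over the 41 pigs (edgeR, FDR under 0.1). The slope in Landrace minus that in Duroc, in log2 per unit of score, was 0.50 for C1orf131 (edgeR FDR 0.0911), 2.54 for PLEKHB1 (edgeR FDR 0.0911) and 2.03 for NUF2 (edgeR FDR 0.0814). With scaling by total counts no gene passed. NUF2 ran from 0.439 to 22.2 CPM in Duroc and from 0.251 to 1.36 CPM in Landrace.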

How the results depend on the processing

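Counts of genes past the threshold (208 higher and 46 lower, 254 in all) moved with most choices, and the cause was not tested. They were 351 and 181 (532) with DESeq2, 826 and 29 (855) with scaling by total counts, 32 and 2 (34) with age and batch added, 54 and 4 (58) with FCR added, 335 and 208 (543) with neither breed nor RIN, 21 and 0 (21) in Landrace alone, 584 and 303 (887) for the 8 highest against the 8 lowest, 47 and 3 (50) with the score without ATP2A2, 49 and 6 (55) with the score from TMM-scaled CPM, 141 and 17 (158) with the score adjusted for breed and RIN, 650 and 306 (956) with the score as a number in 41 pigs, and 112 and 9 (121) at FDR under 0.05. The lower genes were 13 with no filter beyond 1 count and 106 for the 13 highest against the 13 lowest. With DESeq2 66.0% of the called genes were higher, against 81.9% with edgeR. Added after these were the fits, chosen after seeing the data, of the score in 40 pigs without Landrace 8, with 107 and 9 (116), in 39 pigs without Landrace 8 and Duroc 10, with 104 and 11 (115), of the groups without both, with 10 and 0 (10), without the highest and the lowest pig, with 10 and 0 (10), in batch 2 alone, with 96 and 4 (100), and with the TMM factor as a covariate, with 29 and 2 (31). Leaving out each pig in turn gave 16 to 592 genes, 16 to 387 higher and 0 to 205 lower, with the lowest without Landrace 8 and the highest without Landrace 25. Without Landrace 10 there were 128, without Landrace 14 145 and without Duroc 10 109. The 254 genes kept their direction in each of these fits except 1 with neither breed nor RIN, 1 in 39 pigs, and 9 in batch 2, where the named genes BCAP31 (0.10) and TRMU (0.28) turned positive. A filter of at least 5 counts in every pig left 244 of them tested, all in the same direction. Of 137 named genes tested, 43 were called, and 41 of these kept their direction in every alternative. Of the named genes not called, 41 changed sign in an alternative. Most alternatives refit the pigs that gave the calls, so a kept direction there is not a separate check.

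In the middle pigs 1 gene passed with scaling by total counts and 4 with DESeq2. For the difference between breeds in the slope, 9 passed with DESeq2 and 0 with total counts. The FCR difference turned to 0.012 with the score adjusted for breed and RIN and to 0.0361 in Landrace alone (exact permutation p = 0.504), and stayed between −0.0889 and −0.0398 with each pig left out. The correlation of score and RIN was 0.0129 without pigs with RIN below 7. It was −0.157 with the score without ATP2A2 and −0.264 with the score from TMM-scaled CPM. With the total on genes, the correlations of these scores were −0.166 and −0.269 in that order. The breed difference in score was −0.673 without Landrace 8. Fisher's exact p for the breed make-up was 0.0256 for 8 against 8 and 1 for the adjusted score, with the odds ratio below 1 (0.643). No paired analysis was possible because each pig gave 1 library and the numbers of the pigs follow the order of deposition. Totals on genes ranged from 22188911 to 25954816 counts, and how depth bears on the counts of called genes was not tested.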
